A study of Homo sapiens with 15 samples.

Results

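The keratin family was described in C4-2B cells. Its members were taken as the protein-coding genes whose symbol is KRT followed by a number, with keratin-associated proteins and pseudogenes left out, which gave 55 genes of the 19708 protein-coding genes and 58302 genes listed in all. C4-2B is an established human prostate cancer cell line derived from LNCaP. The labels give its cell type as adenocarcinoma and its genotype as wild type, and the cells were grown in RPMI with fetal bovine serum and no further treatment. RNA-seq of 3 C4-2B libraries was analysed. The 4 groups of DKD and ER cells with scr or siPax5 were not analysed here, so no comparison between cell lines or treatments was made. Nothing in the labels says that the replicates came from separate cultures, so their spread may be technical.

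Keratins form the intermediate filaments of epithelial cells. A filament is built from pairs, each of a type I (acidic) and a type II (basic) keratin, and desmosomes and linker proteins anchor it. Simple epithelia, such as the luminal layer of the prostate gland, are known for KRT8 with KRT18, joined by KRT19, KRT7 or KRT20 in some ducts and glands. Basal cells of the prostate and of stratified epithelia are known for KRT5 with KRT14, and for KRT15 and KRT17. Suprabasal epidermis uses KRT1 with KRT10, and hair shafts and their root sheaths have keratins of their own. Genes were put in these classes by such textbook roles: 5 simple, 4 basal, 19 other epithelial, 9 root sheath and 17 hair keratins, and KRT222 without a class.

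Reads are assigned to a gene by its sequence. The stretch below is the end of the helical rod, where keratins are most alike, and it is shown because it lets a reader see how near a basal keratin and a pseudogene copy are to the luminal KRT18. Each is 60 coding bases (or the matching bases of a processed pseudogene), written 5′ to 3′ along the gene's strand on GRCh38. Capitals mark bases that differ from KRT18.
KRT18: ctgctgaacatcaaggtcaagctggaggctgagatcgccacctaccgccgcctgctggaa
KRT19: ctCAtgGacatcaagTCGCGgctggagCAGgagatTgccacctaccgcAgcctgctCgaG
KRT14: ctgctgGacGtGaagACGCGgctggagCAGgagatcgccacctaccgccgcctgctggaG
KRT10: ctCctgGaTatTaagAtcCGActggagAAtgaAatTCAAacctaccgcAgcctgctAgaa
KRT18P31: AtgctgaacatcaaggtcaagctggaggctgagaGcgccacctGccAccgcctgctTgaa

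The KRT18 stretch lies in a coding exon at chr12:52952266-52952325 on the plus strand. The type I stretches of KRT19, KRT14 and KRT10 are at chr17:41523791-41523850, chr17:41583249-41583308 and chr17:40819528-40819587, all on the minus strand. That of the pseudogene KRT18P31, the KRT18 copy with the most counts, is at chr5:36886300-36886359 on the plus strand. Over these 60 bases KRT14 differed from KRT18 at 12 positions, KRT19 at 15 and KRT10 at 17, while KRT18P31 differed at 5. The pseudogene was thus nearer to KRT18 than the other keratins shown were. Over whole coding sequences, KRT18 shared 64.8% of aligned bases with KRT14, 64.6% with KRT19 and 90.6% with KRT18P31.

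The 3 libraries held 44992971, 49569026 and 46232076 counts in genes. The values deposited are raw read counts, and they were scaled here to TPM. TPM is a share of all transcripts that divides each count by gene length, here that of the exon union. Comparisons of levels between genes rest on that length, and some below turned with it. Errors below are SDs over the 3 libraries. Confidence intervals of summed counts and limits from 3 counts cover counting error only, and they are too narrow because both reads of a pair were counted. The labelled cell type was checked against marker lists. The 5 luminal prostate markers were all expressed, with a summed TPM of 2944 to 2999 over the libraries, led by KLK3 (prostate-specific antigen) at 1988 ± 21.1 TPM. Of the 5 basal markers 1 was expressed, ITGA6 (integrin alpha 6) at 22.3 ± 1.11 TPM, and the summed level of the list was 22.5 to 24.4 TPM. KRT5 and KRT14 are in that list, so it is no check independent of the keratin levels below. Expressed means at least 1 TPM in each library, which 61.2% of all protein-coding genes reached. TP63, the master regulator of basal epithelium, had 0 counts in every library. The 3 neuroendocrine markers were all expressed as well and summed to 44.9 to 46.6 TPM. Nearly all of it was ENO2 (neuron-specific enolase) at 42.9 ± 0.958 TPM. CHGA (chromogranin A) was at 1.38 ± 0.243 TPM and SYP (synaptophysin) at 1.31 ± 0.0773 TPM. Of the 3 mesenchymal markers only VIM (vimentin) was expressed, and their sum was 20.02 to 20.83 TPM. In bulk RNA, fewer cells with a transcript and less of it per cell cannot be told apart.

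Nearly all keratin RNA of these cells came from 4 genes. The 55 keratins summed to 532, 525 and 523 TPM in replicates 1 to 3, or 527 ± 4.76 TPM, and took 0.0755% ± 0.000946 of all counts. KRT18, KRT8, KRT19 and KRT10 were the keratins at 10 TPM or more in every library. Only 2 more, KRT73 and KRT80, reached 1 TPM in all 3 libraries. So 6 of the 55 keratins counted as expressed by that rule, or 10.9%, against 61.2% of all protein-coding genes. The median keratin stood at 0.0417 TPM and the median protein-coding gene at 5.88 TPM. At the other end, 12 of the 55 keratins had 0 counts in every library, where 12.6% of all protein-coding genes did. A further 14 keratins had 1 to 3 counts in all. A count in each of the 3 libraries was found for 17 keratins.

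**Figure D1:**
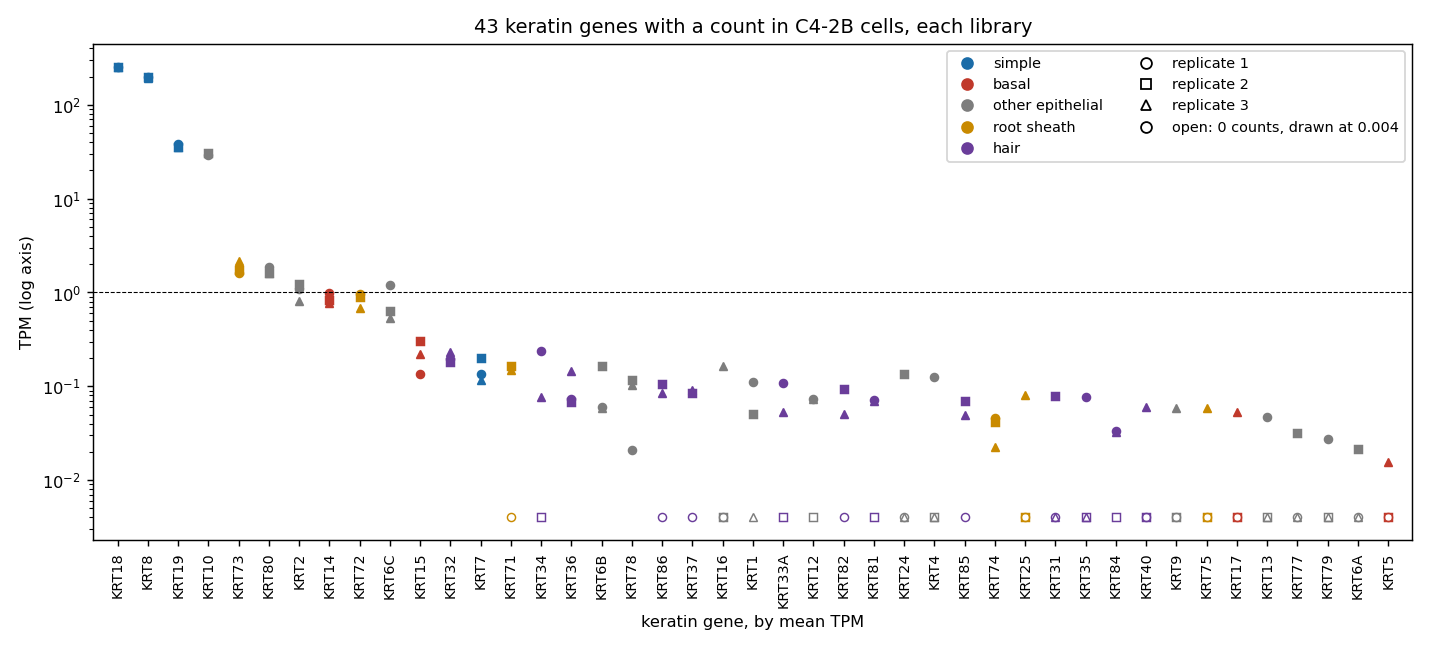
TPM (log axis) of the 43 keratin genes with at least 1 count, ordered by mean, with colour for the class and a symbol for each of the 3 libraries. Open symbols drawn at 0.004 stand for libraries with 0 counts, and the dashed line is 1 TPM. KRT18, KRT8, KRT19 and KRT10 stand above 28 TPM in each library, and every other keratin stays under 2.2 TPM.

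KRT18 (ENSG00000111057), the type I keratin of simple epithelium, was at 256, 252 and 253 TPM in the 3 libraries, from 11964, 12934 and 12003 counts. Its mean of 254 ± 2.29 TPM ranked 369 among protein-coding genes. KRT8 (ENSG00000170421), its type II partner, was at 199, 198 and 196 TPM from 19829, 21651 and 19900 counts, with a mean of 197 ± 1.52 TPM and rank 534. The libraries differed little for either gene, and the ranges of the pair did not overlap on this scale. KRT19 (ENSG00000171345), a small type I keratin of luminal and ductal cells that lacks most of the tail domain, was at 38.5, 35.6 and 35.5 TPM, or 36.6 ± 1.71 TPM. KRT18 was 6.95 ± 0.255 times as high as KRT19. That placed KRT19 clearly below the pair and above KRT10 in every library.

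The remaining simple keratins were near or at 0. KRT7, the type II keratin of many ductal and glandular epithelia, had 8, 13 and 7 counts, a level of 0.150 ± 0.0439 TPM. A short antisense gene, KRT7-AS, overlaps part of its exons and had 2 counts in each library, and 7.67% of the exon bases of KRT7 are shared with other genes. KRT20, known from intestine and urothelium, had 0 counts in every library, which allows up to 0.0360 TPM by a limit of 3 counts over the libraries. Of the 5 simple keratins, 3 were expressed, a share near the 61.2% of all protein-coding genes.

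The basal keratins were low in every library. KRT5 (ENSG00000186081), the type II keratin of basal cells, had 0, 0 and 1 counts, a mean of 0.00526 TPM. KRT14 (ENSG00000186847), its type I partner, had 33, 30 and 26 counts, or 0.998, 0.826 and 0.772 TPM with a mean of 0.865 ± 0.118 TPM. The exact Poisson interval of its 89 counts is 71.5 to 109.5 counts, and KRT14 was detected in each library while its partner was not in replicates 1 and 2. KRT15, a type I keratin of basal and stem cells, had 14, 34 and 23 counts, or 0.220 ± 0.0828 TPM. KRT17, a type I keratin of basal and activated epithelium, had 0, 0 and 2 counts. None of the 4 reached 1 TPM in any library when TPM was scaled to all genes. Scaled to protein-coding genes outside the mitochondrial genome, KRT14 had a mean of 1.37 TPM, since all levels rise by a factor of 1.59 on that scale. KRT14 made up 78.0% ± 8.66 of their summed TPM.

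The contrast of luminal with basal keratins was large against the spread between libraries. Simple keratins summed to 494, 486 and 484 TPM, and basal keratins to 1.13, 1.13 and 1.06 TPM. In log2 the ratio was 8.78 ± 0.0439 (SD, n = 3), a factor of 441, and it exceeded 8.7 in each library. The exact two-sided sign-flip permutation test gave p = 0.25, the smallest p that 3 libraries allow, so this design could not reach a smaller one. Simple keratins made up 92.6% ± 0.172 of all keratin TPM and basal keratins 0.210% ± 0.00647. The ratio leaned on KRT14 among the basal genes: without it the log2 ratio was 11.06 ± 0.659, from the 74 remaining counts of KRT5, KRT15 and KRT17.

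**Figure D2:**
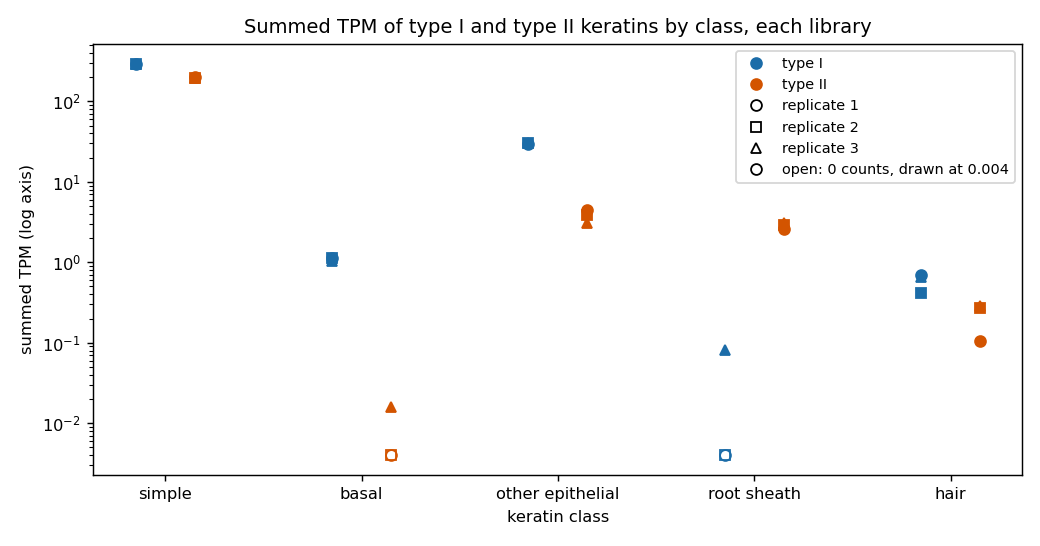
Summed TPM (log axis) of the type I and type II keratins of each class, with a symbol for each of the 3 libraries and open symbols at 0.004 for libraries with 0 counts. Simple keratins of type I lie between 288 and 295 TPM and those of type II between 196 and 199 TPM, basal type I keratins lie between 1.05 and 1.13 TPM, and the basal type II keratin KRT5 was counted in replicate 3 alone.

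Among the other epithelial keratins, KRT10 stood alone. KRT10 (ENSG00000186395), the type I keratin of suprabasal epidermis, was at 29.1, 30.7 and 30.5 TPM, or 30.1 ± 0.891 TPM, and gave most of the 34.1 ± 0.524 TPM of its class. KRT1, its usual type II partner, had 4, 2 and 0 counts, or 0.0538 ± 0.0555 TPM. The epidermal pair was thus expressed as 1 member only. Counting used no strand, and 2.61% of the exon bases of KRT10 lie under exons of other genes. KRT10-AS1, its antisense neighbour, was at 32.2 ± 1.49 TPM, and reads over the bases shared by both were counted for neither.

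A type II keratin of this class and one of the root sheath were expressed at low levels. KRT80, a type II keratin found in many epithelia, had 119, 112 and 103 counts and stood at 1.70 ± 0.160 TPM. KRT73, a keratin of the inner root sheath, had 62, 74 and 85 counts and stood at 1.85 ± 0.290 TPM. Their ranges over libraries overlapped, so the order of this pair is not settled by these libraries with exon-union lengths. KRT73-AS1 shares exon bases with KRT73, 37.8% of the exon bases of KRT73 lie under other genes, and KRT73-AS1 had 7, 14 and 8 counts. With the exon bases that no other gene covers as length, KRT73 was at 2.83 TPM and KRT80 at 1.62 TPM. KRT2, a keratin of the upper epidermis, had 40, 50 and 30 counts with a mean of 1.05 ± 0.224 TPM, and fell under 1 TPM in replicate 3. The root sheath keratins together summed to 2.89 ± 0.277 TPM, of which the 4 type I genes gave 2 counts in all.

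Further keratin pairs of stratified epithelia, beside KRT5 with KRT14 and KRT1 with KRT10, were at trace levels, and their members are named here outside the naming rule. KRT6A and KRT16, the pair of activated and hyperproliferative epithelium, had 0, 1 and 0 counts and 0, 0 and 6 counts, while KRT6C, a close relative of KRT6A, had 102 counts in all and stood at 0.786 ± 0.354 TPM. KRT4 and KRT13, the pair of internal stratified linings, had 6, 0 and 0 counts and 2, 0 and 0 counts. KRT3 and KRT12, the corneal pair, had 0 counts and 2, 0 and 2 counts. No gene of these pairs was counted in all 3 libraries, and since both reads of a pair were counted, 2 counts can be 1 fragment. KRT72, another root sheath keratin, was higher, with 30, 31 and 22 counts and 0.852 ± 0.142 TPM, and lies next to KRT73 in its cluster.

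Hair keratins were at trace levels. The 17 genes had 20, 22 and 27 counts in the 3 libraries, 69 in all, and summed to 0.808 ± 0.135 TPM. None was expressed, and 4 had 0 counts. The highest type I hair keratin, KRT32, a keratin of the hair cuticle, had 5, 5 and 6 counts, or 0.203 ± 0.0268 TPM. Among type II hair keratins KRT86, a keratin of the hair cortex, had the highest mean from 0, 4 and 3 counts, but its range overlapped those of KRT82 and KRT81 and no order can be read. Type I hair keratins had 45 counts and type II 24. The class sum of hair keratins was below that of basal keratins in every library, with highest values of 0.948 and 1.13 TPM. The keratin-associated proteins, which bind hair keratins, summed to 3.02 to 3.60 TPM. Of these 94 genes 1 was expressed, KRTAP5-1 at 2.75 ± 0.163 TPM, and 86 had 0 counts. Over all protein-coding genes 61.2% were expressed and 12.6% had 0 counts.

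Ordered by level per length of the exon union, KRT18, KRT8, KRT19 and KRT10 each lay above the next gene in all libraries. KRT73 and KRT80 overlapped each other, and KRT80 lay above KRT2. From KRT2 down through KRT14 and KRT72 to KRT6C neighbours overlapped, and KRT6C lay above KRT15. Below that, KRT15, KRT32 and KRT7 overlapped in turn, so no order among them can be read. KRT6C and KRT72 are named here after their values were seen.

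Type I and type II keratins were then set against each other, since filaments need both. The 29 type I keratins summed to 326, 320 and 321 TPM and the 26 type II keratins to 206, 205 and 202 TPM. The log2 ratio of type II to type I was -0.66 ± 0.00984 (SD, n = 3), with p = 0.25 by the exact sign-flip permutation test, again the smallest possible. KRT8 to KRT18 alone gave 0.775, 0.783 and 0.775, a log2 ratio of -0.36 ± 0.00816 (exact sign-flip permutation p = 0.25). Both ratios varied little between libraries, but their direction rested on the gene length used. The deposited exon union of KRT8 is 6881 bases and its canonical transcript 1784 bases, against 3218 and 1413 bases for KRT18. With canonical transcript lengths KRT8 was at 512 ± 3.50 TPM and KRT18 at 389 ± 3.17 TPM, and the log2 ratio became 0.40. In the same way the ratio of type II to type I became 0.19. As read counts alone, KRT8 exceeded KRT18 by 1.66 ± 0.00942 times. The excess of simple over basal keratins kept its direction, at a log2 ratio of 9.35 with canonical lengths. The ratio of KRT14 to KRT15 was 4.51 ± 2.45 with exon unions and 1.52 ± 0.826 with canonical lengths, and in replicate 2 it was 0.923 with canonical lengths. The lead of KRT14 among basal keratins thus also depended on length.

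**Figure D3:**
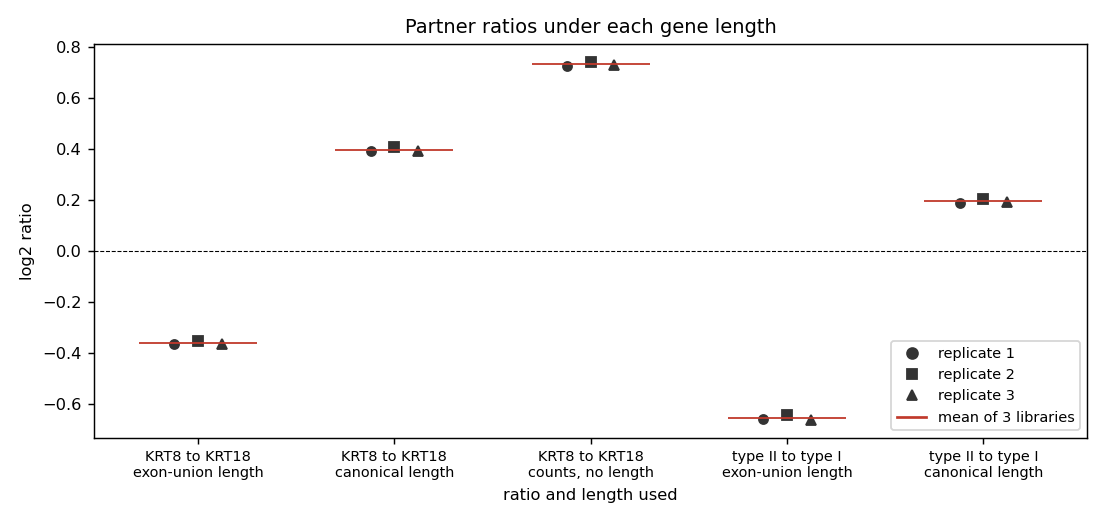
Log2 ratios of KRT8 to KRT18 and of all type II to all type I keratins in each of the 3 libraries (symbols) with their mean (red line), under each gene length. The dashed line at 0 marks equal levels. KRT8 lies below KRT18 with exon-union lengths at -0.36 and above it with canonical lengths at 0.40 and as counts at 0.73.

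The genes lie in 2 clusters. On chromosome 12, chr12:52168996-52952901, are the 26 type II keratins and the type I gene KRT18, and on chromosome 17, chr17:40654665-41624842, are the other 28 type I keratins. KRT8 (chr12:52897187-52949954, minus strand) and KRT18 (chr12:52948871-52952901, plus strand) sit side by side at the far end of the first cluster. Their annotated ends overlap, so 16.3% of the exon bases of KRT18 and 7.63% of those of KRT8 are shared by the pair, and reads there were counted for neither. Their nearest keratin neighbour, KRT78, ends 48.1 kb from KRT8 and stood at 0.0802 TPM. The next keratin gene to the high pair was thus at trace level. On chromosome 17, KRT19 (chr17:41523617-41528308, minus strand) begins 1.09 kb from the end of KRT15, a basal keratin at 0.220 TPM. KRT10 (chr17:40818117-40822595, minus strand) has the root sheath keratin KRT28, at 0 counts, on one side and the corneal keratin KRT12, at 0.0488 TPM, on the other. The nearest keratin neighbours of expressed keratins were in these cases not expressed, apart from KRT8 and KRT18 themselves. Of all keratins only 10.9% were expressed, so most keratin neighbours are not. KRT73 lies between KRT72 at 0.852 TPM and KRT2 at 1.05 TPM, both nearer to its own level. Genes other than keratins were not placed in this order, and KRT10-AS1, which overlaps KRT10, was expressed at 32.2 ± 1.49 TPM.

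**Figure D4:**
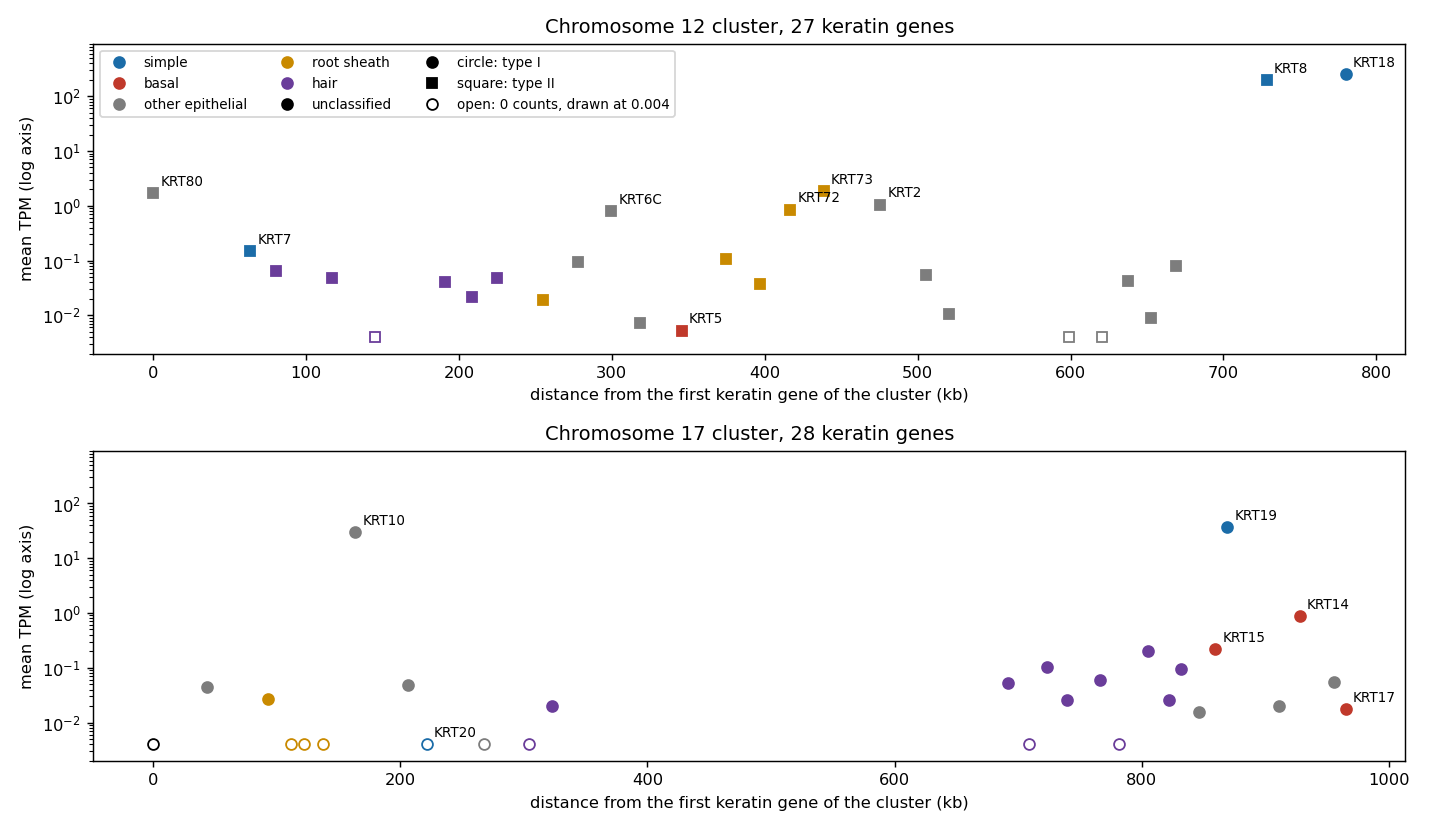
Mean TPM (log axis) of each keratin gene against its distance in kb from the first keratin gene of its cluster, for chromosome 12 (above) and chromosome 17 (below), with colour for the class, circles for type I and squares for type II. Open symbols at 0.004 have 0 counts. KRT8 and KRT18 stand together at the end of the chromosome 12 cluster, and KRT10 and KRT19 stand apart from each other among low keratin neighbours on chromosome 17.

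Copies of keratin sequence in the genome can limit what is counted, since reads that align to several places were left out. The share of windows of 32 bases with an exact copy elsewhere in the genome was taken as a measure of this. For canonical exons it was 67.7% for KRT8 and 68.3% for KRT18, the highest of the family, against 8.72% for KRT19 and 0.640% for KRT10. Among basal keratins it was 48.4% for KRT14, shared mostly with KRT16 and its pseudogenes, 35.9% for KRT17 and 7.61% for KRT5. Among the keratins at trace levels it was 50.7% for KRT6A and 40.1% for KRT16, and hair keratins ranged from 0% to 51.1% (KRT81). The levels of KRT8 and KRT18 may leave out reads, but how many were left out for these or the other genes was not tested. Read length was not used, so these are not shares of lost reads.

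**Figure D5:**
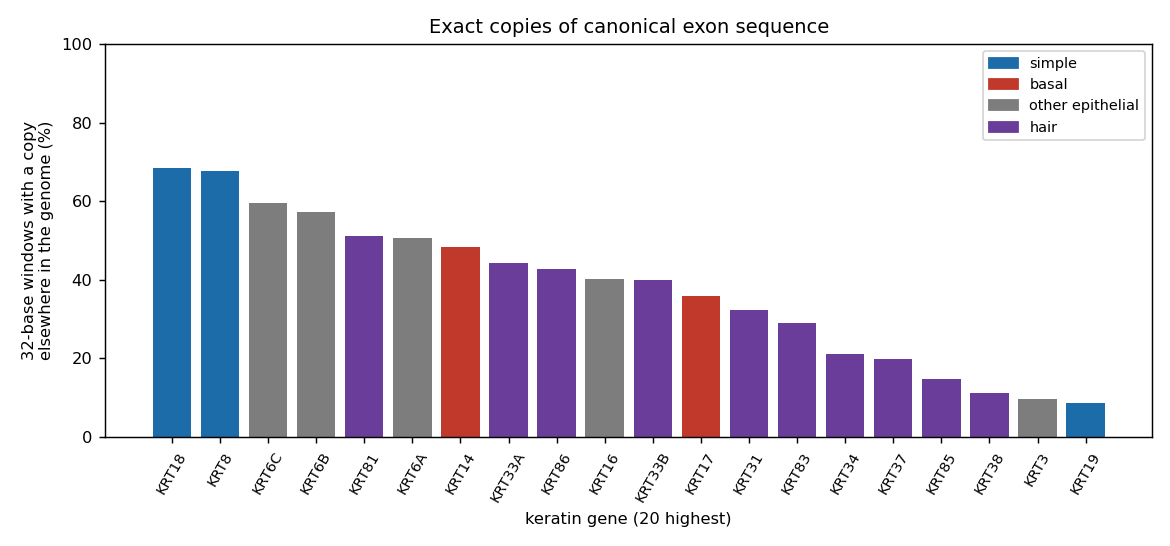
Share of 32-base windows in canonical exons that occur exactly elsewhere in the genome (percent, bars from 0), for the 20 keratins with the highest share, coloured by class. KRT18 at 68.3% and KRT8 at 67.7% lead, followed by KRT6C and KRT6B, and KRT19 closes the plot at 8.72%.

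Counts assigned to the copies themselves were a small share of those of the parents. The 51 processed pseudogenes of KRT8 had 924, 1169 and 992 counts together, equal to 5.01% ± 0.371 of the counts of KRT8, and 33 of them had any. In TPM, which divides by their shorter lengths, they summed to 43.7 ± 3.04, above KRT19. KRT8P12 led at 10.8 ± 1.03 TPM, followed by KRT8P46 at 7.83 ± 1.19 TPM. The 67 pseudogenes of KRT18 had 402, 477 and 406 counts, or 3.48% ± 0.183 of those of KRT18, and summed to 21.5 ± 1.13 TPM. KRT18P31, whose bases are shown above, had 57, 84 and 57 counts (3.37 ± 0.618 TPM) and KRT18P7 55, 76 and 58 counts (3.42 ± 0.436 TPM), with overlapping ranges. Whether these reads came from the pseudogenes or from their parents was not tested. Added to the parents, the counts of the processed pseudogenes (51 of KRT8 and 66 of KRT18) moved the log2 ratio of KRT8 to KRT18 from -0.36 to -0.34.

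The libraries were compared with each other for each gene. Of the 55 keratins, 11 had at least 30 counts and could be tested, and 0 differed between libraries by the chi-square test with Benjamini-Hochberg adjustment over all genes, where 0.792% of the 22229 genes tested did. At an unadjusted p under 0.05 there was 1 of the 11 keratins, or 9.09% against 11.3% of all genes tested. It was KRT6C, a type II keratin of palm and sole epidermis, named after its value was seen. It had 50, 29 and 23 counts and was highest in replicate 1 (adjusted p = 0.384 by the chi-square test), and 59.5% of its canonical windows are copied elsewhere, mostly in KRT6A and KRT6B. With DESeq2 size factors the number was 0 as well.

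The proteins that hold keratin filaments were described beside them. Of 13 desmosome genes 8 were expressed, a share near the 61.2% of all protein-coding genes, at a median of 7.48 TPM over the list. JUP (plakoglobin) was at 291 ± 1.63 TPM, DSG2 (the desmoglein of simple epithelia) at 250 ± 5.10 TPM and DSP (desmoplakin, which binds keratins) at 164 ± 2.19 TPM. Some desmogleins and desmocollins of stratified epithelia were low: DSG3 had 6, 13 and 4 counts, and DSC3 stood at 0.937 ± 0.0880 TPM. Among 7 linkers and regulators 6 were expressed, from FAM83H, which organises keratin filaments, at 137 ± 3.20 TPM and PLEC (plectin) at 109 ± 1.84 TPM down to DST (dystonin) at 2.28 ± 0.0112 TPM. TRIM29, a protein of basal cells, was the exception at 0.108 ± 0.0143 TPM. Expression was not confined to proteins of simple epithelium: DSC1, a desmocollin of epidermis, was at 2.93 ± 0.149 TPM, and the envelope proteins EVPL (envoplakin) and PPL (periplakin) at 32.3 ± 0.786 and 22.3 ± 1.21 TPM.

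Other intermediate filaments were expressed inside and outside the nucleus. Of 15 genes 7 were expressed, against 61.2% of all protein-coding genes. The nuclear lamins led with LMNB1 at 225 ± 2.39 TPM and LMNB2 at 152 ± 1.20 TPM. VIM, the filament of mesenchymal cells, was at 20.2 ± 0.444 TPM, below KRT19 and KRT10 in mean level with exon-union lengths. With canonical lengths VIM was at 32.6 TPM, above KRT10 at 20.3 TPM. DES (desmin, of muscle) had 0 counts. Of 7 measured genes of cornification, the hardening of epidermis, 1 was expressed, against the same 61.2%. It was TGM1 (transglutaminase of the cell envelope) at 1.86 ± 0.375 TPM. SPRR1A, SPRR1B, SPRR2A and SPRR3 had 0 counts, where 12.6% of all protein-coding genes did. None of the genes in these lists that had at least 30 counts differed between libraries by the same chi-square test with Benjamini-Hochberg adjustment.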

How the data were processed

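Total RNA was depleted of ribosomal RNA and made into directional libraries, per the labels. The authors aligned reads to GRCh38 with STAR 2.7.0f and deposited raw counts per gene, made with featureCounts 1.6.3 on the Ensembl release 90 annotation, together with each gene's exon-union length, another value per gene in bases. The command in the file headers names no strand and no fragment counting, so either strand was counted and mates entered as separate reads. Reads over several genes or of several alignments were not counted.

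Symbols, gene types and canonical transcripts came from GENCODE 44 by Ensembl identifier (57532 of 58302 genes matched). TPM was computed from counts and exon-union lengths, over all genes. Expressed means that each of the 3 libraries reached 1 TPM. Log2 ratios within a library were tested by exact two-sided sign-flip permutation (smallest p 0.25). Libraries were compared by a chi-square test of each gene's 3 counts against TMM-scaled totals (edgeR 4.0.16), divided by 2 for separately counted mates, with 2 degrees of freedom, a minimum of 30 counts, and Benjamini-Hochberg adjustment at 0.05. Intervals are exact Poisson at 95%, and the limit for 0 counts is 3 counts over the libraries.

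Sequences were cut from GENCODE 44 transcripts, and exact 32-base windows were searched on both strands of GRCh38. Identities count aligned bases only. Some sequences are not reported here. Python 3.11.15 and R 4.3.3 were used. Alternatives were CPM, other lengths, scalings, list members, thresholds, DESeq2 1.42.0 size factors and leaving out each library.

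Members and gene lists were chosen with earlier results of these data known. Named keratins are those at a mean TPM of at least 1, all simple and basal keratins, the highest hair keratin of each type, the highest root sheath keratin, and the usual partner of an expressed keratin. Others are said to be named after their values were seen, or stand as neighbours in position. Of the lists, genes at the extremes and at 0 are named, with some others between them. LOR was not matched. Some groups of the series were not analysed here.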

Additional observations from a re-analysis of the deposited data

How the results depend on the processing

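No paired analysis was possible because only 1 group was analysed. The direction of 2 ratios turned with gene length. KRT8 to KRT18 had a log2 ratio of -0.36 with exon-union length and 0.73 by CPM. In runs added after seeing the data, it was 0.40 with canonical transcript length. It was 0.42 with that length and processed pseudogene counts added to the parents. Type II to type I had -0.66 with exon-union length, 0.51 by CPM and 0.19 with canonical length. The counts are the same by CPM and with both lengths, so in those the length makes the turn. The excess of simple over basal keratins kept its direction in all alternatives run. The log2 ratio of class sums ran from 7.72 without KRT18 to 11.06 without KRT14. The difference between class means of log2(TPM + 1), another measure, was 3.91. Expressed keratins numbered 13 at a TPM of at least 0.1, and 7 without replicate 3, where KRT2 joined. With the chi-square not divided, 1 keratin differed between libraries (KRT6C, adjusted p = 0.0117), among 3835 of 22229 genes against 176 with the division. Of the 16 named keratins, the level moved by more than 1 SD in 9 by CPM, 11 by TPM over protein-coding genes, 10 with canonical length and 4 with unshared exon length. TPM over protein-coding genes multiplied every level above 0 by about 1.59, so its number shows only how large each SD was. CPM is another unit, without length, so its number does not measure stability. Without replicate 3, KRT5 and KRT17 were at 0 TPM, and without replicate 1, KRT1 was at 0.0252 TPM against 0.0538 TPM. With 1 library left out the log2 ratio of simple to basal keratins was 8.76 to 8.80, and the other library-by-library results kept their direction. Depth limits the hair, root sheath and basal keratins under about 10 counts, whose order cannot be read.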
